A study of Mus musculus with 9 samples.

Results

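The integrin subunits, the talins and the kindlins are 31 genes: 18 alpha subunits, 8 beta subunits, 2 talins and 3 kindlins. They were taken by gene symbol from a table of 46078 mouse genes, in which each had 1 row, and they were ordered by the alpha and beta pairs they form. The table held RNA-seq read counts of CD31+ cells, negative for CD45 and Ter119, that were sorted as endothelial cells (ECs) from the bone marrow (BM) of wild type mice of the B6 strain. There were 4 libraries of the Sca-1+ fraction, whose labels end in 7, 13, 15 and 19, and 5 of the Sca-1- fraction, whose labels end in 8, 10, 14, 16 and 22. The study took Sca-1 level as a mark of vessel type, with ECs high in Sca-1 lining arterioles and ECs low in Sca-1 lining sinusoids. The labels call the fractions Sca-1+ and Sca-1-, and the comparison asks how the 2 fractions differ. Values are listed below in that order of libraries, and unless another unit is named they are CPM, which are read counts scaled to a common library size, with the sizes adjusted by TMM, a method that assumes most genes do not differ. Within these fractions the labels are not uniform: those of libraries 13, 14 and 22 also carry CD452, that of library 10 carries the same number without the letters, those of 8 and 19 carry a different number each before wt, and Sca-1+ library 15 and Sca-1- library 16 share one number before wt. Whether these are strains or animals is not stated. The labels do not say that each library came from a separate animal, and neither age nor sex is given, so p-values measure the spread between these libraries.

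An integrin is a receptor made of 1 alpha and 1 beta subunit that crosses the membrane and ties the cell to collagen, laminin, fibronectin, fibrinogen or a counter-receptor on another cell. It is held in a low affinity form until a talin and a kindlin bind the tail of the beta subunit inside the cell, a step known as inside-out activation. In endothelium, integrins that contain beta1 hold the vessel to its basement membrane, while platelets use alphaIIb with beta3 to bind fibrinogen and leukocytes use the beta2 integrins to stop on the vessel wall. The talins and kindlins are likewise divided among tissues: kindlin-3, the product of Fermt3, is known as the kindlin of blood cells, and kindlin-2, the product of Fermt2, as the broadly expressed one.

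The sorting genes and the marker genes of each fraction were read first. Total counts per library lay between 21581653 and 25959818, at which 3 counts, taken as the floor, were worth 0.0996 to 0.209 CPM (counting error only, since the libraries carry no molecular identifiers). Ly6a, which encodes Sca-1, was at 1133 ± 187 (SD, n = 4) in Sca-1+ and 0.678 ± 0.524 (SD, n = 5) in Sca-1-, and Pecam1, which encodes CD31, was at 1399 ± 261 and 836 ± 613 (edgeR adjusted p = 0.247). Ptprc, which encodes CD45, was at 0.843 ± 1.20 and 28.9 ± 14.1 (edgeR adjusted p = 0.00691). Of 22 endothelial markers, 21 were higher in Sca-1+, and the 22 summed there to 16268 to 19638, against 1270.1 to 2768 in Sca-1-. The exception was Esam, at 10.18 to 10.30 log2 CPM in Sca-1+ and 8.24 to 11.21 in Sca-1-. Esam took most of the sum in Sca-1- libraries 8 and 10. It had 21162 and 34032 counts there, against 2350 and 1673 for Plvap, the next marker. Emcn, whose product the study took as a mark of sinusoids, was at 9.27 to 9.92 log2 CPM in Sca-1+ and 2.12 to 4.81 in Sca-1-. All 14 megakaryocyte and platelet markers were lower in Sca-1+, with sums of 28.1 to 82.4 against 20965 to 91007, and 8 of 10 general leukocyte markers were lower, with sums of 119.5 to 197 against 1528 to 2720.5. The Sca-1- libraries, labelled as endothelial, thus held more RNA of the megakaryocyte and platelet markers than of the endothelial ones, and none of the listed endothelial markers was at 0 in all of them. The part of these other cell markers in the differences of the members was not tested, and in bulk RNA fewer cells of a type and less RNA per cell cannot be told apart.

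The members separated into a set that was higher in Sca-1+ and a larger set that was lower. Of the 31 members, 26 passed the filter on low counts and 5 (Itgad, Itgax, Itgb6, Itgb8 and Fermt1) did not. Among them 8 were higher in Sca-1+ (Itga1, Itga3, Fermt2, Itga7, Itga8, Tln2, Itga9 and Itga5), beside 23.3% of all 15937 genes tested, and 12 were lower (Itga2b, Fermt3, Itgb3, Itgb2, Itgal, Itgb5, Itgb7, Tln1, Itga6, Itgae, Itga4 and Itga2), beside 21.4% of all genes, although 0 members were higher and 20 lower when libraries were scaled to their endothelial markers, beside 1.2% and 89.4% of all genes under that scaling. The other 6 (Itgb1, Itgav, Itgb4, Itgam, Itga10 and Itga11) did not pass an adjusted p of 0.05. Every Sca-1+ library lay above every Sca-1- library for 8 members, beside 24.8% of all genes, and below it for 10 members, beside 18.8% of all genes. The median log2 fold change of the tested members was -1.71, against 0.07 over all genes tested. Together the members took 1534 to 2239 CPM in a Sca-1+ library and 12232 to 49172 CPM in a Sca-1- library.

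**Figure D1:**
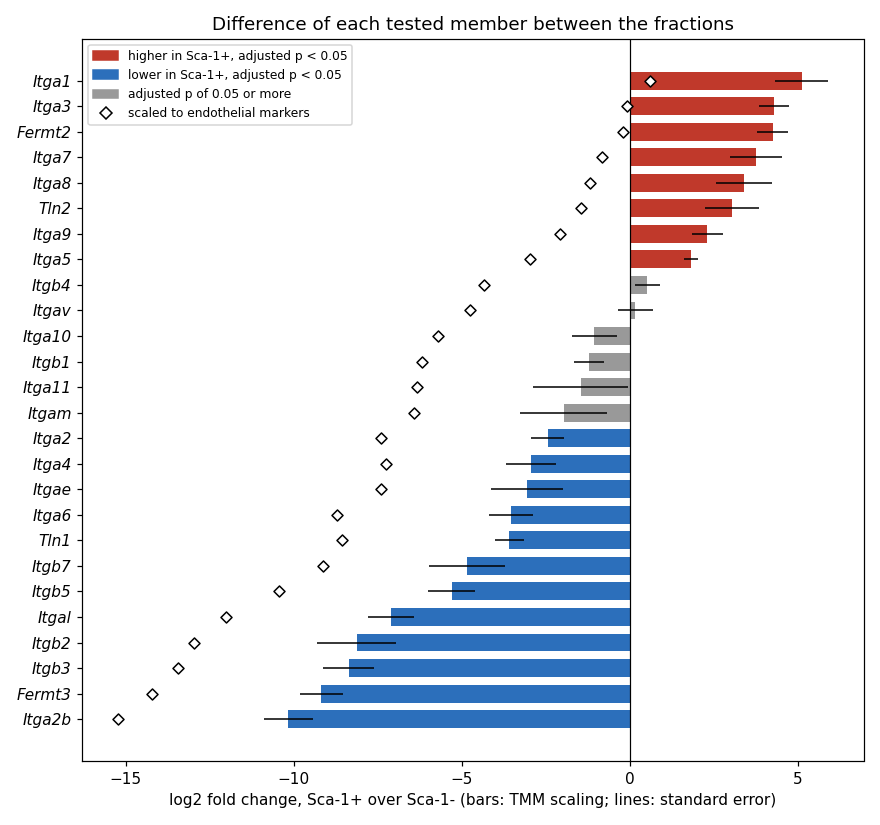
Log2 fold change (horizontal axis, Sca-1+ over Sca-1-) of the 26 tested members, as bars with standard errors in the main scaling and as open diamonds after scaling to endothelial markers. The bars run from -10.16 for Itga2b to 5.12 for Itga1, and each diamond lies to the left of the end of its bar, with Itga1 alone above 0.

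The scaling decides where 0 lies on that axis. Endothelial scaling set each library to the geometric mean of its endothelial marker counts, so each marker weighed the same. It moved the median log2 fold change of all genes from 0.07 to -4.59. The 8 higher members then had values between -2.97 (Itga5) and 0.61 (Itga1). Differences between the members are therefore given below also as shares within a library, which no scaling of libraries can change.

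The beta subunits decide which family an integrin belongs to, and none of them was called higher in Sca-1+ under either scaling. Itgb1, the beta1 subunit shared by most matrix-binding integrins, was at 974, 630.0, 424 and 893 in the Sca-1+ libraries and at 2776, 2621, 1115, 779 and 1140.4 in the Sca-1- libraries. Libraries 8 and 10 were the highest and the fractions overlapped, since Sca-1- library 16 lay below Sca-1+ libraries 7 and 19 (log2 fold change -1.21 ± 0.45 (SE), edgeR adjusted p = 0.0517). Itgb1 passed the threshold in 10 of 24 alternative fits, endothelial scaling among them. It also passed without Sca-1- library 14, 16 or 22 (edgeR adjusted p = 0.0226 to 0.0492). With libraries 15 and 16, whose labels share a number, as a block it passed too (-1.13, edgeR adjusted p = 0.036). Without Sca-1- libraries 8 and 10 together the log2 fold change was -0.48 (edgeR adjusted p = 0.225), so Itgb1 stood at the edge of the call.

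Itgb3, the beta3 subunit of the platelet fibrinogen receptor and of the vitronectin receptor, was at 6.44, 3.98, 4.87 and 5.11 in Sca-1+ and 2944, 3165, 767, 511 and 1032 in Sca-1-. The fractions did not overlap, and the mean was 329.7-fold higher in Sca-1- (log2 fold change -8.37 ± 0.77 (SE), edgeR adjusted p = 3.81e-05). Itgb5, the beta5 subunit that pairs with alphav alone, was at 33.5, 29.2, 27.0 and 59.1 in Sca-1+ and 2166, 3163, 848, 511 and 621 in Sca-1-. It was likewise without overlap, 39.3-fold higher in Sca-1-, with libraries 8 and 10 again highest (log2 fold change -5.30 ± 0.69 (SE), edgeR adjusted p = 0.000230).

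Itgb2, the beta2 subunit (CD18) of the leukocyte integrins, was at 0.545, 0.477, 0.414 and 7.67 in Sca-1+ and 1013, 843, 439, 468 and 414 in Sca-1-. Sca-1+ library 19 stood apart from the other 3 of its fraction, and every Sca-1- library lay above it (log2 fold change -8.13 ± 1.16 (SE), edgeR adjusted p = 0.000377). Without library 19 the log2 fold change was -10.36. The same library held 779.5 CPM of the summed neutrophil markers, against 8.43 to 56.9 in the other Sca-1+ libraries. The Sca-1- libraries (137 to 747) held less of these markers than library 19 and more than the other Sca-1+ libraries. They held far more Itgb2 than any Sca-1+ library. Among the Sca-1- libraries, library 14 had the highest neutrophil sum and library 8 the highest Itgb2. Itgb7, the beta7 subunit of the mucosal homing integrins, was at 0.886, 1.74, 1.93 and 3.10 in Sca-1+ and 5.23, 20.2, 31.4, 206 and 10.8 in Sca-1-. Library 16 was far above the other Sca-1- libraries, and the fractions did not overlap (log2 fold change -4.84 ± 1.14 (SE), edgeR adjusted p = 0.00601). Without library 16 the log2 fold change was -3.15. That library also held the highest sum of basophil and mast cell markers, given with the other marker lists at the end.

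Itgb4, the beta4 subunit of hemidesmosomes, was at 34.7, 21.3, 29.1 and 44.7 in Sca-1+ and 37.1, 28.9, 16.1, 9.99 and 20.7 in Sca-1-. The fractions overlapped and the difference did not pass (log2 fold change 0.53 ± 0.37 (SE), edgeR adjusted p = 0.279). It passed with library sizes left unscaled (1.04, edgeR adjusted p = 0.0234) and without Sca-1- libraries 8 and 10 (1.045, edgeR adjusted p = 0.0337), and was at -4.35 with endothelial scaling. Itgb6 and Itgb8, which pair with alphav, did not pass the filter: Itgb6 had 5 counts over the 4 Sca-1+ libraries and 52 over the 5 Sca-1- libraries, and Itgb8 had 0 counts in Sca-1+ and 25 in Sca-1-, from libraries 10 and 22 only.

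**Figure D2:**
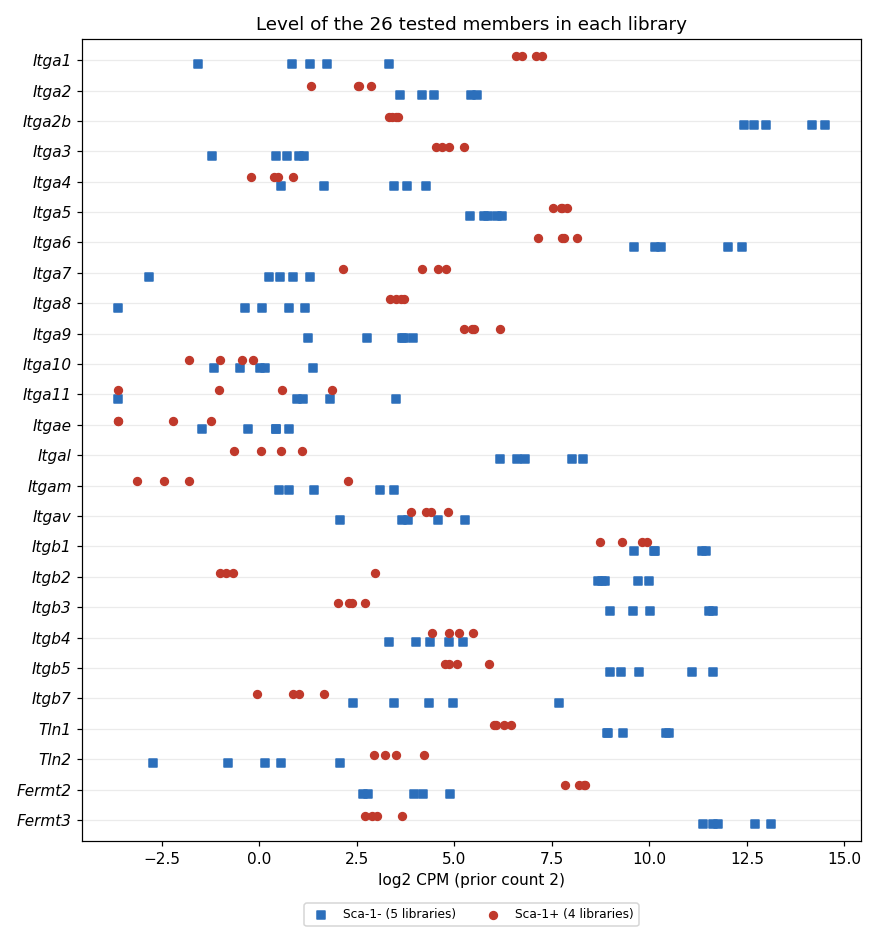
Level of each of the 26 tested members (rows) on a log2 CPM scale with a prior count of 2, with 4 Sca-1+ libraries as circles and 5 Sca-1- libraries as squares. The circles and squares do not overlap for 18 members, and the widest gap is that of Itga2b.

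Alpha subunits that read the Arg-Gly-Asp motif of fibronectin, vitronectin and fibrinogen went in opposite directions under TMM scaling, while all 4 had negative values with endothelial scaling. Itga5, the fibronectin receptor alpha5, was at 235, 185, 216 and 212 in Sca-1+ and 42.0, 74.8, 58.2, 54.0 and 68.6 in Sca-1-. Every Sca-1+ library was above every Sca-1- library, by 3.56-fold in the mean (log2 fold change 1.83 ± 0.21 (SE), edgeR adjusted p = 0.000109), and scaling to endothelial markers turned this to -2.97. Itga8, a receptor for nephronectin and fibronectin, was at 12.3, 10.1, 11.3 and 12.9 in Sca-1+ and 2.16, 0.698, 0, 1.63 and 0.977 in Sca-1-. It was low in both fractions and did not overlap (log2 fold change 3.41 ± 0.83 (SE), edgeR adjusted p = 0.00714), and stood at -1.18 with endothelial scaling.

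Itga2b, the alphaIIb chain (CD41) found on platelets and megakaryocytes (ENSMUSG00000034664, chr11:102453297-102470122, minus strand), was at 11.7, 10.5, 11.2 and 9.87 in Sca-1+ and 18340.4, 23281, 8189.8, 5539 and 6606 in Sca-1-. This was the largest difference among the members, 1147-fold in the means (log2 fold change -10.16 ± 0.73 (SE), edgeR adjusted p = 1.58e-05), and the Sca-1+ libraries agreed within a SD of 0.783. Its partner Itgb3 lies on the same chromosome (ENSMUSG00000020689, chr11:104608000-104670476, plus strand). Itgav, the alphav chain that pairs with 5 beta subunits, was at 28.4, 14.8, 21 and 19.3 in Sca-1+ and 38.4, 24, 4.12, 12.6 and 14 in Sca-1-. The Sca-1+ values lay inside the range of the Sca-1- values (log2 fold change 0.17 ± 0.52 (SE), edgeR adjusted p = 0.818).

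Laminin receptors also divided under TMM scaling, with all 3 negative under endothelial scaling. Itga6, the alpha6 chain of laminin receptors on endothelium and platelets alike, was at 225, 143, 217 and 281 in Sca-1+ and 4149, 5319.9, 1126, 775 and 1257 in Sca-1-. No library overlapped, and libraries 8 and 10 exceeded the other Sca-1- libraries (log2 fold change -3.54 ± 0.65 (SE), edgeR adjusted p = 0.00159). Itga3, the alpha3 laminin receptor of basement membranes, was at 29.2, 22.9, 25.8 and 37.8 in Sca-1+ and 1.26, 0.349, 2.12, 1.56 and 1.95 in Sca-1-. It was 19.7-fold higher in Sca-1+ without overlap (log2 fold change 4.3 ± 0.46 (SE), edgeR adjusted p = 7.53e-05). Itga7, the laminin receptor known from muscle, was at 17.9, 4.36, 27.3 and 23.7 in Sca-1+ and 0.0601, 1.12, 2.38, 1.36 and 1.75 in Sca-1-. Sca-1+ library 13 was the lowest of its fraction but above every Sca-1- library (log2 fold change 3.76 ± 0.77 (SE), edgeR adjusted p = 0.00282). After scaling to endothelial markers Itga3 and Itga7 had log2 fold changes of -0.08 and -0.82.

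The collagen receptors alpha1 and alpha2 are neighbours in the genome and differed in direction in both scalings, though the value of Itga1 did not pass with endothelial scaling. Itga1 (ENSMUSG00000042284, chr13:114953096-115101964, minus strand) was at 106, 96.0, 137 and 152 in Sca-1+ and 3.24, 2.37, 0.255, 9.86 and 1.71 in Sca-1-. Sca-1+ was higher in every library, 34.8-fold in the mean (log2 fold change 5.12 ± 0.78 (SE), edgeR adjusted p = 0.000550), and the value was 6.03 without Sca-1- library 16, the highest of its fraction, and 0.61 with endothelial scaling. Itga2 (ENSMUSG00000015533, chr13:114833081-114932100, minus strand), whose product is the platelet collagen receptor chain alpha2, lies beside it on the same strand, with 20995 bases between the 2 genes on GRCm38. Itga2 was at 5.76, 2.42, 5.70 and 7.20 in Sca-1+ and 47.6, 43.2, 18.0, 12.2 and 22.1 in Sca-1-, lower in every Sca-1+ library (log2 fold change -2.44 ± 0.49 (SE), edgeR adjusted p = 0.00261).

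Itga10 and Itga11, the collagen receptors of cartilage and fibroblasts, had low counts in both fractions. Itga10 was at 0.204 to 0.818 in Sca-1+ and 0.365 to 2.52 in Sca-1-, overlapping (log2 fold change -1.05 ± 0.67 (SE), edgeR adjusted p = 0.229), and it shares 33.5% of its exon bases with an annotated gene on the same strand, so its counts are uncertain. Itga11 was at 0 to 3.58 in Sca-1+ and 0 to 11.2 in Sca-1-, with 1 library at 0 in each fraction (log2 fold change -1.45 ± 1.41 (SE), edgeR adjusted p = 0.430).

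Alpha4 and alpha9 form a sequence group of their own and share the ligand VCAM-1. Itga9, a receptor of lymphatic and vascular cells, was at 72.2, 43.4, 45.3 and 37.8 in Sca-1+ and 13.1, 2.30, 6.70, 12.5 and 15.2 in Sca-1-. It was 4.97-fold higher in Sca-1+ without overlap (log2 fold change 2.31 ± 0.47 (SE), edgeR adjusted p = 0.00275), and at -2.08 with endothelial scaling. Itga4, the alpha4 chain of VLA-4 on leukocytes, was at 1.23, 0.783, 1.31 and 1.74 in Sca-1+ and 1.38, 3.07, 10.8, 19.2 and 13.8 in Sca-1-. Libraries 14, 16 and 22 were high, library 8 lay inside the Sca-1+ range, and 8.04% of its exon bases overlap Cerkl on the other strand (log2 fold change -2.93 ± 0.74 (SE), edgeR adjusted p = 0.00884).

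The alpha chains that define leukocytes were led by Itgal. Itgal, the alphaL chain of LFA-1 (CD11a), was at 0.954, 2.04, 0.553 and 1.39 in Sca-1+ and 314, 259.5, 72.4, 111 and 97.0 in Sca-1-. It was 138-fold higher in Sca-1- without overlap (log2 fold change -7.11 ± 0.68 (SE), edgeR adjusted p = 4.46e-05). Itgam, the alphaM chain of Mac-1 (CD11b) on neutrophils and monocytes, was at 0.205, 0.0341, 0.104 and 4.76 in Sca-1+ and 1.62, 2.58, 8.40, 10.9 and 1.34 in Sca-1-. Only Sca-1+ library 19, which also held the neutrophil markers, reached the Sca-1- range (log2 fold change -1.97 ± 1.29 (SE), edgeR adjusted p = 0.242), and without that library the adjusted p of edgeR was 0.00474 at a log2 fold change of -5.38.

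Itgae, the alphaE chain (CD103) of mucosal T cells, was at 0.136, 0.341, 0 and 0 in Sca-1+ and 1.26, 0.279, 1.61, 0.731 and 1.26 in Sca-1-. The fractions overlapped at library 10, and the call rested on 14 counts in Sca-1+ and 116 in Sca-1- (log2 fold change -3.05 ± 1.08 (SE), edgeR adjusted p = 0.0407). Leaving out 1 library ended that call for 6 of the 9 libraries, with adjusted p of 0.0512 to 0.098 (edgeR) without Sca-1+ library 7, 15 or 19 or Sca-1- library 8, 14 or 22, and the value was -4.33 without Sca-1+ library 13. Itgad and Itgax, the alphaD and alphaX chains (CD11c) of macrophages and dendritic cells, did not pass the filter, with 14 and 2 counts in Sca-1+ and 50 and 48 counts in Sca-1-.

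The talins and kindlins, which bind the beta tail, differed in opposite directions within each family under TMM scaling, whereas with endothelial scaling both members of each family had a negative value. Tln1, the main talin of blood cells and endothelium, was at 76.7, 64.6, 87.5 and 67.5 in Sca-1+ and 1449.8, 1372, 642, 490.2 and 479 in Sca-1-. It was 12-fold higher in Sca-1- without overlap (log2 fold change -3.58 ± 0.44 (SE), edgeR adjusted p = 0.000163). Tln2, the second talin, known from heart, muscle and brain, was at 7.63, 11.3, 9.22 and 18.4 in Sca-1+ and 4.08, 0.0698, 1.40, 1.03 and 0.489 in Sca-1-. It was higher in every Sca-1+ library, at a low level (log2 fold change 3.04 ± 0.81 (SE), edgeR adjusted p = 0.0114), and at 3.87 without Sca-1- library 8 and -1.46 with endothelial scaling.

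Fermt2 (ENSMUSG00000037712, chr14:45458795-45530118, minus strand) was at 292, 228, 319.9 and 326 in Sca-1+ and 18.1, 6.28, 6.87, 29.3 and 15.7 in Sca-1-. It was 19.1-fold higher in Sca-1+ with no overlap (log2 fold change 4.25 ± 0.46 (SE), edgeR adjusted p = 8.8e-05), and its value with endothelial scaling was -0.20. Fermt3 (ENSMUSG00000024965, chr19:6998958-7019469, minus strand) was at 7.98, 6.44, 7.32 and 12.6 in Sca-1+ and 6739.6, 8931, 3442, 2659.7 and 3164 in Sca-1-. The difference was 581-fold in the other direction, again with no overlap (log2 fold change -9.18 ± 0.63 (SE), edgeR adjusted p = 1.5e-05). Fermt1, the kindlin of epithelia, had 0 counts in all 9 libraries, which allows a level of up to 0.0996 to 0.209 CPM.

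To compare genes with each other, counts were divided by exon length, and each gene was given as a percent of the RNA of its kind in the same library, with no test. Fermt3 made up 2.39, 2.47, 2.01 and 3.36 percent of kindlin RNA in the Sca-1+ libraries and 99.7, 99.9, 99.8, 98.8 and 99.5 percent in the Sca-1- libraries. The rest was Fermt2, so Fermt2 led in every Sca-1+ library (96.6% to 98.0%) and Fermt3 in every Sca-1- library (98.8% to 99.9%). Among the talins no such inversion took place, since Tln1 was the larger part everywhere: it made up 95.0, 91.5, 94.7 and 87.3 percent of talin RNA in Sca-1+ and 99.8% to 99.997% in Sca-1-. Tln2 was 5.05% to 12.7% of talin RNA in Sca-1+ and at most 0.150% in Sca-1-.

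Among beta subunits, Itgb1 made up 93.7, 92.4, 88.6 and 88.8 percent in Sca-1+ and 32.0, 27.3, 34.2, 29.4 and 36.2 percent in Sca-1-. Sca-1+ thus had a single main beta subunit, whereas beta subunit RNA in Sca-1- was spread over Itgb1, Itgb5 (22.1% to 37.8%), Itgb3 (13.3% to 23.4%) and Itgb2 (11.7% to 23.6%). Itgb3 was 0.352% to 0.703% of beta subunit RNA in Sca-1+. Itgb7 was at most 1.42% in any library but Sca-1- library 16, where it was 11.4%.

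Alpha subunits showed the reverse, with the even spread in Sca-1+. Itga2b alone made up 86.3, 86.7, 90.6, 89.1 and 87.2 percent of alpha subunit RNA in the Sca-1- libraries, and 2.07, 2.59, 2.14 and 1.73 percent in the Sca-1+ libraries. In Sca-1+ the largest shares were those of Itga5 (41.1% to 50.5%) and Itga6 (21.3% to 29.7%), followed by Itga1 (5.49% to 7.80%), Itga9 (4.70% to 9.07%) and Itga3 (4.71% to 6.33%). Itga5 was 0.219% to 1.0% of alpha subunit RNA in Sca-1-. The share of Itga6 was lower in Sca-1- too (7.53% to 12%), where it ranked second. These shares depend on the length used: without a correction for length the difference of Itga2b was -80.9 percentage points instead of -85.9, and that of Itgb3 -27.6 instead of -19.2.

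**Figure D3:**
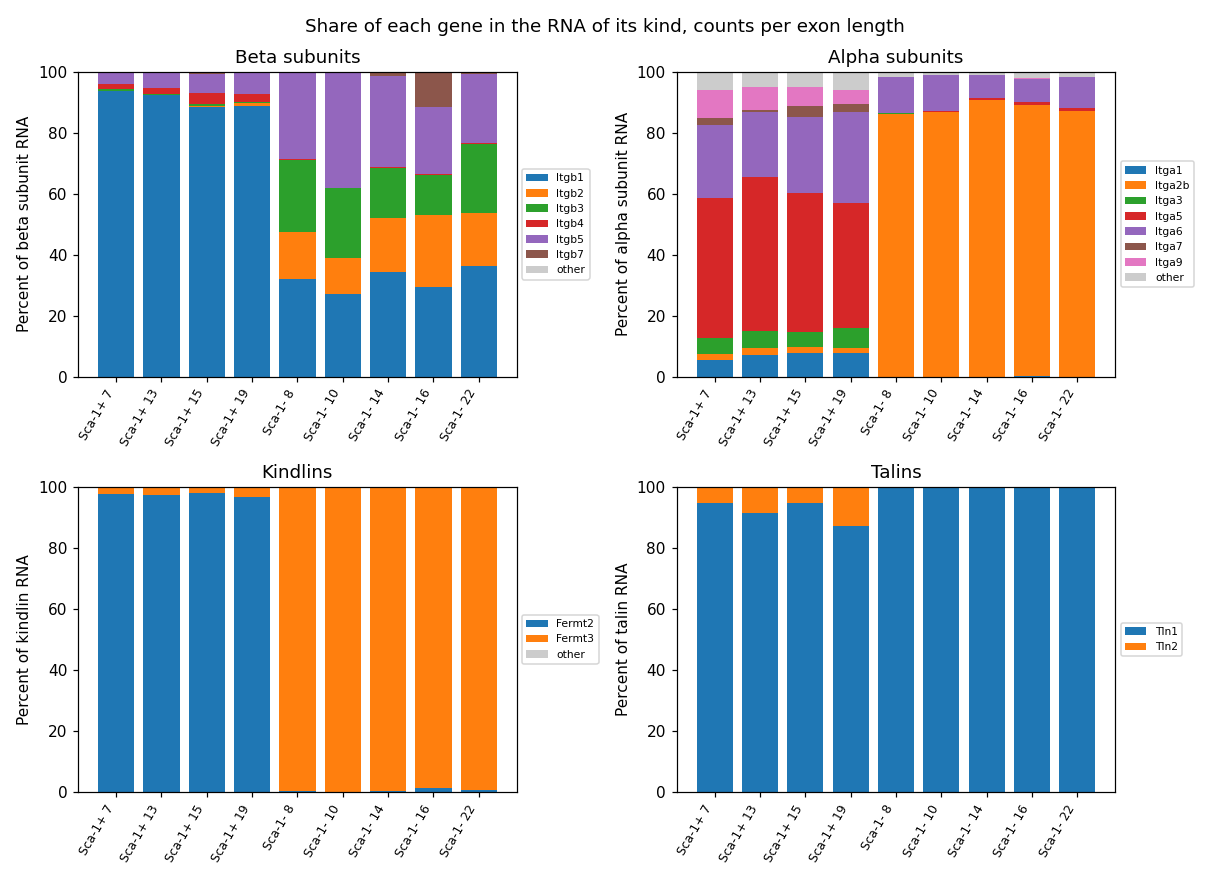
Stacked bars give, for each of the 9 libraries, the percent (vertical axis) that each gene took of beta subunit, alpha subunit, kindlin and talin RNA, from counts per exon length. Itga2b and Fermt3 fill 86.3% to 90.6% and 98.8% to 99.9% of their bars in Sca-1- and at most 2.59% and 3.36% in Sca-1+.

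The promoters of 4 genes are shown, those of the kindlins Fermt2 and Fermt3, whose order was inverted, and those of Itga1 and Itga2b, the ends of the fold change ranking, which have windows in the RefSeq table (GRCm38.p6), which covers 22 of the 31 members. Each window runs 5′ to 3′ from 250 bases before the start of transcription to 50 after it, and capitals mark words of the ETS class, the word AGGAAG or the word CGGAAG on either strand. The windows lie at chr11:102469834-102470133 on the minus strand (Itga2b), chr19:7019420-7019719 on the minus strand (Fermt3), chr13:115101915-115102214 on the minus strand (Itga1) and chr14:45530016-45530315 on the minus strand (Fermt2).
Itga2b: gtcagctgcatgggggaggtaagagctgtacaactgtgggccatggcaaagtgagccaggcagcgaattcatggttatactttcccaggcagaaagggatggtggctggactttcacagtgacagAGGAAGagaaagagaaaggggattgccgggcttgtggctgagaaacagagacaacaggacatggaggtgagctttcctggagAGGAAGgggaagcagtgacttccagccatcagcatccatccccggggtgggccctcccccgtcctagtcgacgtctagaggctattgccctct
Fermt3: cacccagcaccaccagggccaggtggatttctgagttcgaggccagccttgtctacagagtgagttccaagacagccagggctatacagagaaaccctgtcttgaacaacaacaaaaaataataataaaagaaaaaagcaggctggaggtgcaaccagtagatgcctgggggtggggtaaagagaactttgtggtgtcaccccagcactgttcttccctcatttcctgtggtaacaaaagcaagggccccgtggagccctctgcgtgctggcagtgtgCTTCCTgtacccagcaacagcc
Itga1: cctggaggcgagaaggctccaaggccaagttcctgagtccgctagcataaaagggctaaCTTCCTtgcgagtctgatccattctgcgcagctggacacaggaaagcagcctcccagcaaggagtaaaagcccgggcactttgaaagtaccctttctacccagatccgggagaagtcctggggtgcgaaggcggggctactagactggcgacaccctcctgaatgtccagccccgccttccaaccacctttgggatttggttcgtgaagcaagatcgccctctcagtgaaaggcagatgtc
Fermt2: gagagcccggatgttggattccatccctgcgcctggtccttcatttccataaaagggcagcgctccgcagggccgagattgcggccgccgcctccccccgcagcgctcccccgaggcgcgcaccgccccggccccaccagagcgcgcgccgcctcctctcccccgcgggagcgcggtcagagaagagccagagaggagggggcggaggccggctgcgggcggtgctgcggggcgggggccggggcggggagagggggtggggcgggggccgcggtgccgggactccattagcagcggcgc

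In these letters Itga2b held 2 ETS words, Fermt3 and Itga1 held 1 each and Fermt2 held 0. An ETS word stood in 4 of 7 windows of lower members and in 3 of 7 windows of higher members (6 genes, since Itga3 has 2 windows), beside 46.5% of all 32851 windows of the table. GATA words (the word AGATAA, the word AGATAG, the word TGATAA or the word TGATAG, on either strand) stood in 1 of 7 windows of lower members, that of Itgb7, and in 0 of 7 windows of higher members, beside 29.8% of all windows. Fermt2 had the most CpG pairs of the 4, at 37 with a GC content of 76.7%, and Fermt3 the fewest, at 3 with 52.3%. A match in a window is a description of its letters and says nothing of binding.

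A receptor needs both of its chains, so the 24 known pairs were read from the level per length of both subunits (RPKM, which is CPM per 1000 exon bases), again without a test. In Sca-1+ the pair with the highest level of its lower subunit was alpha5beta1, with Itga5 at 43.0 ± 4.16 RPKM and Itgb1 at 179 ± 61.6 RPKM (SD, n = 4). Alpha6beta1 was next, with Itga6 at 24 ± 6.28 RPKM, and then alpha1beta1, with Itga1 at 6.59 ± 1.41 RPKM, and alpha9beta1, with Itga9 at 6.46 ± 1.99 RPKM, which differed by less than their spread.

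In Sca-1- the leading pair was alphaIIbbeta3, with Itga2b at 2272 ± 1455 RPKM and Itgb3 at 285 ± 215 RPKM (SD, n = 5). Alpha6beta1 was close to it, with Itga6 at 279.9 ± 229 RPKM and Itgb1 at 413 ± 229.5 RPKM, and the spread of its lower subunit covered the difference. AlphaLbeta2 came next, with Itgal at 26 ± 16.5 RPKM and Itgb2 at 208 ± 89.9 RPKM. Itga2b exceeded Itgb3 per length by 6.74 to 11.7 times in the Sca-1- libraries and by 1.96 to 2.85 times in the Sca-1+ libraries. Itgb5 stood at 411 ± 326 RPKM in Sca-1-, while its only partner Itgav stood at 1.73 ± 1.22 RPKM, so the 2 chains of alphavbeta5 were unequal there, and in Sca-1+ they were at 10.5 ± 4.18 and 1.94 ± 0.523 RPKM. Summed over all subunits, alpha RNA was below beta RNA in every Sca-1+ library (74.3 to 104.6 against 117 to 255 RPKM) and above it in every Sca-1- library (1139.6 to 4924 against 650.5 to 2356 RPKM).

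**Figure D4:**
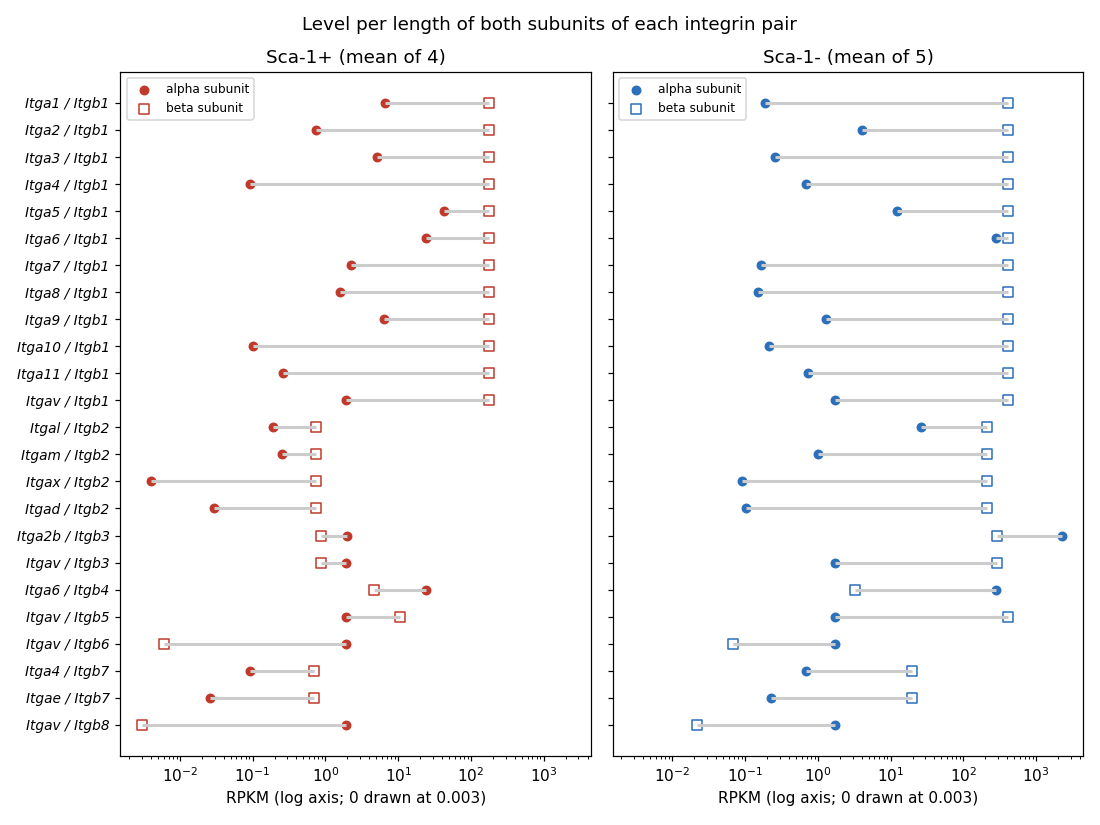
Mean level of the alpha subunit (filled circle) and beta subunit (open square) of the 24 pairs in RPKM on a log axis, for 4 Sca-1+ libraries on the left and 5 Sca-1- libraries on the right, with 0 drawn at 0.003. Itgb1 stands above each of its partners in both fractions, and Itga2b with Itgb3 moves from 1.98 and 0.865 RPKM to 2272 and 285 RPKM.

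Ligands of integrins in the same cells were read from a list of 41 genes, of which 37 were tested. Among them 19 were higher in Sca-1+ and 7 lower, beside 23.3% and 21.4% of all genes tested, with a median log2 fold change of 2.32 against 0.07 over all genes, although 0 were higher and 24 lower with endothelial scaling, which called 1.2% and 89.4% of all genes. The higher genes included the laminin chains Lama4, Lama5, Lamb1 and Lamb2 and the leukocyte counter-receptors Icam1, Icam2, Vcam1 and Madcam1. Among genes of the same kinds, the counter-receptor Icam4 was lower (-3.06), and the laminin chain Lamc1 did not pass (0.29, edgeR adjusted p = 0.629). Col4a1, a collagen chain of basement membranes, was at 312 to 840.1 in Sca-1+ and 2.55 to 31.4 in Sca-1- (log2 fold change 5.43 ± 0.80 (SE), edgeR adjusted p = 0.000431). The lower genes included Vwf and Tgfb1. Thbs1, thrombospondin-1 of platelet granules, was at 19.5 to 82.6 in Sca-1+ and 791 to 6294 in Sca-1- (log2 fold change -6.19 ± 0.85 (SE), edgeR adjusted p = 0.000286). Col1a1 and Col1a2, the chains of type I collagen made by bone and stromal cells, were at 27.4 to 389 and 22.8 to 245 in Sca-1+ and 2028 to 27568 and 925 to 13062 in Sca-1-. Their log2 fold changes were -6.20 ± 1.08 (SE) with an edgeR adjusted p of 0.00116 and -5.43 ± 0.97 (SE) with one of 0.00133. Without Sca-1+ library 19, the highest of its fraction for both, the values of Col1a1 and Thbs1 were -7.07 and -6.83.

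Genes that switch integrins on or off made up a list of 30, of which 29 were tested. Here 7 were higher and 14 lower in Sca-1+, beside the same shares of all genes, with a median of -1.55, and 0 were higher and 26 lower with endothelial scaling, beside the same 1.2% and 89.4% of all genes. The 4 genes named next were all lower. They had the largest differences among genes past the threshold, without overlap and averaging 3 or more on the log2 CPM scale. Rasgrp2 (CalDAG-GEFI), the exchange factor that loads Rap1 in platelets, was at 27.2 to 59.4 in Sca-1+ and 751 to 3681 in Sca-1- (log2 fold change -5.51 ± 0.63 (SE), edgeR adjusted p = 0.000109). Rasa3, which turns Rap1 off, was at 40.3 to 45.8 in Sca-1+ and 756 to 5567 in Sca-1- (log2 fold change -5.84 ± 0.70 (SE), edgeR adjusted p = 0.000148). Fyb, the adaptor ADAP, was at 0.898 to 3.03 in Sca-1+ and 355 to 1355 in Sca-1- (log2 fold change -8.91 ± 0.71 (SE), edgeR adjusted p = 2.14e-05), and Dok2, an adaptor of hematopoietic cells, at 0.658 to 1.53 in Sca-1+ and 285 to 494 in Sca-1- (log2 fold change -8.67 ± 0.39 (SE), edgeR adjusted p = 3.32e-06). Both Rap1a and Rap1b were lower, and so were the Rap1 effectors Apbb1ip (-3.52) and Rassf5 (-4.63). The Rap1 exchange factors Rapgef1 and Rapgef3, the Rap1 effector Rasip1 and the talin-binding Kank2 and Kank3 were higher. Sipa1 was higher too (1.67), and Kank1 did not pass (1.10, edgeR adjusted p = 0.192).

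Proteins of the adhesion complex formed a list of 38, all tested, of which 15 were higher and 15 lower, beside 23.3% and 21.4% of all genes tested, with a median of 0.14. With endothelial scaling 1 was higher and 34 lower, beside 1.2% and 89.4% of all genes. Within families of this list the members took opposite directions under TMM scaling, as the kindlins did. Lims2 (PINCH-2) was at 227 to 577 in Sca-1+ and 1.95 to 4.08 in Sca-1-, 124-fold higher in the mean (log2 fold change 6.96 ± 0.39 (SE), edgeR adjusted p = 6.3e-06), and remained higher with endothelial scaling (2.46), whereas Lims1 (PINCH-1) was lower (-3.93). Parva was higher (2.94) and Parvb and Parvg were lower (-4.69 and -4.25) on the log2 scale of the main fit. Bcar1 and Nedd9 of the Cas family were higher, and Cass4 of that family was lower, at 0 to 0.345 against 104 to 974 (log2 fold change -11.09 ± 1.22 (SE), edgeR adjusted p = 9.31e-05), and at -10.50 without Sca-1- library 10. The kinases Src, at 0 to 0.409 against 10.6 to 59.1, and Syk, at 0.749 to 3.44 against 107 to 457, were lower (log2 fold change -6.92 ± 0.88 (SE), edgeR adjusted p = 0.000194; log2 fold change -6.73 ± 0.65 (SE), edgeR adjusted p = 4.67e-05).

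Other cell markers moved with single members in some libraries but not in all, and their part in these results was not tested. The basophil and mast cell markers (6 of 6 lower in Sca-1+, none at 0 in all libraries of a fraction) summed to 7.29, 16.3, 6.39 and 82.4 in Sca-1+ and 83.9, 332, 1832, 13089 and 216 in Sca-1-. Their order over the Sca-1- libraries was 16, 14, 10, 22 and 8, which was also the order of Itgb7. The summed epithelial markers, at 4.57 to 105.7 in Sca-1-, had that order too. The smooth muscle and pericyte markers (6 of 9 higher in Sca-1+, 0 lower) summed to 584, 214, 847 and 1442 in Sca-1+ and 59.6, 18.5, 36.3, 50 and 20.6 in Sca-1-. Library 13 was the lowest Sca-1+ library both for this sum and for Itga7. In Sca-1- this did not hold, since library 8 had the highest sum (59.6) and the lowest Itga7 (1 count).

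**Figure D5:**
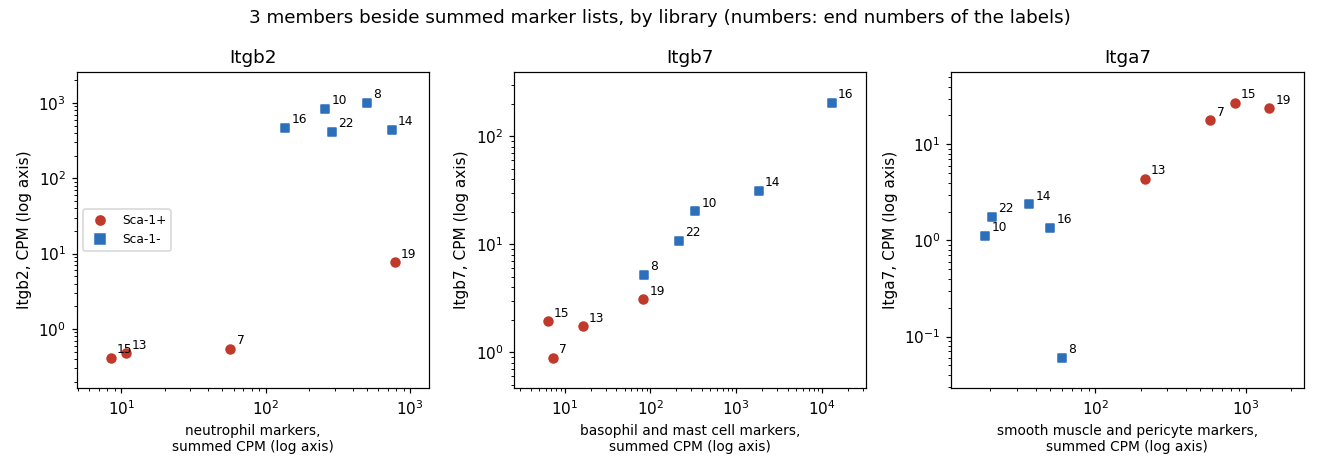
CPM of Itgb2, Itgb7 and Itga7 (vertical log axes) beside the summed CPM of the neutrophil, basophil and mast cell, and smooth muscle and pericyte markers (horizontal log axes) in 4 Sca-1+ libraries (circles) and 5 Sca-1- libraries (squares), numbered as in their labels. Library 19 is the Sca-1+ library with the highest Itgb2 (7.67) and neutrophil sum (779.5), and library 16 has the highest Itgb7 (206) and basophil and mast cell sum (13089).

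The values were also taken without Sca-1+ library 19 and Sca-1- library 16 together. Itgb7 then had a log2 fold change of -3.47 and Itga7 of 3.62, with edgeR adjusted p of 0.00497 and 0.0167, whereas Tln2 (2.63, edgeR adjusted p = 0.0615) and Itgae (-2.76, edgeR adjusted p = 0.084) did not pass. Libraries 8 and 10 carried the highest levels of Itga2b, Itgb3, Itgb5, Itga6 and Tln1 and also the lowest TMM factors (0.671 and 0.581, against 0.988 to 1.16 in the other Sca-1- libraries), and without both of them 9 members were higher and 11 lower. The running numbers of the labels fall into separate blocks by fraction, so a batch that follows them and the fraction cannot be told apart.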

How the data were processed

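RNA was extracted from sorted ECs with a miRNeasy micro kit, and libraries were made from 2 ng of total RNA with a full-length poly(A)-primed kit (SMART-Seq v4) that marks neither strand nor molecule. The authors deposited raw read counts per gene for 46078 genes; their processing notes name STAR, featureCounts and mm10, without versions. Totals per library, 21581653 to 25959818, set the precision given in the text.

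Counts were fitted for all genes with edgeR 4.0.16 (R 4.3.3): filterByExpr defaults (minimum count 10, minimum total 15), TMM, a quasi-likelihood F-test (two-sided) and Benjamini-Hochberg adjustment over 15937 genes at 0.05. Standard errors came from the F statistic. The test was checked on simulated counts. Few genes differed there, equally in both directions, so that check could not test the choice of scaling. DESeq2 1.42.0 and limma 3.58.1 (voom) were alternatives, with other scalings, filters and sets of libraries. Composition and RPKM used exon lengths of GENCODE M21 on GRCm38, and 849 of the deposited identifiers were not in that release. Members, pairs and lists were chosen with earlier results of these data known, and the text names all members, Ly6a, Pecam1 and Ptprc, and from each pathway list the 4 genes with the largest difference among those past the threshold without overlap and averaging 3 or more on the log2 CPM scale. Other list genes are named only by direction and log2 value and were chosen after their values were seen. Figures were drawn with matplotlib.

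The labels give the fractions no shared replicate numbers; 15 and 16 share one number before wt, and 10, 13, 14 and 22 another, whose meaning is not stated. Deviations from the fraction means correlated at 0.15 for libraries 7 and 8, 0.15 for 13 and 14 and 0.04 for 15 and 16. The other combinations across the fractions lay between -0.19 and 0.07, so the values of 7 with 8 and of 13 with 14 were the highest. Whether libraries were paired is not settled by these values. The main fit did not pair them, and fits with a replicate block are given below.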

Additional observations from a re-analysis of the deposited data

Results flagged for a closer look

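A library was marked where it lay far from the rest of its fraction, by Dixon's test at 95%, which chance meets in about 1 of 20 groups; 84 groups (26 members, 5 shares and 11 marker lists in each fraction) were examined and 3 were marked. Itgb2 was at 2.95 log2 CPM in Sca-1+ library 19, against -1.01 to -0.68 in the other 3. Itga7 was at -2.83 log2 CPM in Sca-1- library 8, against 0.26 to 1.30 in the other 4. The B and plasma cell markers summed to 5.54 log2 CPM in Sca-1+ library 19, against 0.21 to 0.35 in the other 3, and no member was read from that list.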

How the results depend on the processing

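There were 24 alternative fits, 2 of them (without Sca-1+ library 19 and Sca-1- library 16, and without Sca-1- libraries 8 and 10) chosen after seeing the data. Of the 20 members called, 15 kept their side of the threshold and their direction in all fits but endothelial scaling; the other 5 were Itga4, Itga7, Itga8, Itgae and Tln2. With endothelial scaling the members called were 0 higher and 20 lower, the ligands 0 and 24, the activation genes 0 and 26 and the adhesion complex 1 and 34, beside 1.2% and 89.4% of all genes; the values then reversed were -0.081 for Itga3, -2.97 for Itga5, -0.82 for Itga7, -1.18 for Itga8, -2.08 for Itga9, -4.74 for Itgav, -4.35 for Itgb4, -1.46 for Tln2 and -0.20 for Fermt2. Itga11 went to 0.023 with the replicate block and to 0.007 without libraries 8 and 10, and Itgav to -0.014 without Sca-1+ library 7 and -0.214 without Sca-1- library 14, in a range of -0.214 to 0.485 over the single libraries left out; none of these was called.

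A replicate block over 3 pairs of consecutive end numbers (6 libraries, whose numbers need not pair) left 5 members higher, against 7 in the same 6 libraries without it and 8 in all 9 libraries, and 4340 genes in all, against 5360 in the same 6 libraries. A block of libraries 15 and 16 changed no member's call but that of Itgb1 (-1.13, edgeR adjusted p = 0.036). Leaving out each library in turn gave 8 to 8 members higher and 11 to 13 lower, 18 to 19 and 7 to 8 ligands, 7 to 8 and 13 to 15 activation genes, and 14 to 16 and 14 to 15 adhesion complex genes. The difference in share (Sca-1+ minus Sca-1-) was -83.5 points for Itga2b with the longest transcript as length, and without a correction for length -80.9 for Itga2b, -27.6 for Itgb3 and -13.6 for Tln1. Leaving out each library gave -86.3 to -85.2 for Itga2b, 58.0 to 60.2 for Itgb1, -20.8 to -18.3 for Itgb3, -8.77 to -6.21 for Tln1 and -97.2 to -96.8 for Fermt3. The causes were not tested. Itgad, Itgax, Itgb6, Itgb8 and Fermt1 did not pass the filter on low counts and were not tested in the main fit.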
